A study of Mus musculus with 24 samples.

Results

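The comparison at embryonic day 17.5 (E17.5) set 3 libraries labelled as Prdm16 conditional knockout (cKO) beside 3 labelled wild type (WT). All 6 hold polyA-selected RNA from the ventricular zone of the cerebral cortex of C57BL/6 mouse embryos. The study has 24 libraries in 8 groups, both labels on 4 days from E11.5 to E17.5, with replicates lettered A, B and C. Genes entered the test if 3 or more of the 6 libraries reached a value of 10, as 15820 of 22529 genes did. For 185 genes just inside that limit the third highest value was 10 to under 11, and for 232 just outside it 9 to under 10. Of the genes inside, 98 passed with cKO-labelled libraries alone and 161 with WT-labelled libraries alone, so that their groups had to differ. The Cre driver, the deleted exons and the number of embryos per library were not given in the sources used here, so that p-values measure only how far these samples spread, which may be technical in part.

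The ventricular zone lines the ventricle of the developing cortex and is where radial glia, the neural stem cells of this tissue, divide. Radial glia give rise to intermediate progenitors and neurons, which leave for the cortical plate, and late in gestation they begin to make glia. Prdm16 encodes a zinc-finger regulator of the PRDM family that binds chromatin, is expressed in radial glia and is also known from brown fat and blood stem cells. Mecom is its closest relative.

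Values are the deposited normalized read counts, given in the order of libraries A, B and C, with cKO and WT standing for the labels. Differences are log2 fold changes of the libraries labelled cKO over those labelled WT on log2(value + 1), each with its SE and its limma p adjusted over all genes tested. The 6 libraries held 34220590 to 37664407 recovered reads each. Correlations of log2 values were 0.987 to 0.994 within groups and 0.94 to 0.97 between them. All 3 WT-labelled libraries held Xist, the RNA of the inactive X chromosome, at 63250.4, 65718 and 87373, with the Y-linked gene Ddx3y at 0 to 1.07. Among the cKO-labelled libraries, A and B held Xist at 25114 and 31010, while C read 127 and held Y-linked transcripts such as Ddx3y at 2693. The sexes of the embryos are therefore not balanced between the groups.

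Prdm16 itself went against the labels. It read 2983, 3594 and 3866 in the libraries labelled cKO and 2070.5, 2000.5 and 2052 in those labelled WT. Every cKO-labelled library lay above every WT-labelled one, a difference of 0.76 ± 0.10 (adjusted p = 0.00036). Over the alternative settings it was 0.68 to 0.92, with an adjusted p of 3.1e-10 to 0.0029. The gene spans bases 154316125 to 154636873 of chromosome 4 (GRCm38, minus strand), and a total over the whole gene does not show whether particular exons were lost. All directions below are between labels, and a mislabelling and an effect of the deletion cannot be told apart from these totals.

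On the earlier days the difference of Prdm16 was -0.94 ± 0.19 at E11.5 (adjusted p = 0.033) and -1.54 ± 0.17 at E13.5 (adjusted p = 0.00064), lower under the cKO label, while -0.20 ± 0.19 at E15.5 did not pass (adjusted p = 1.0). The E17.5 difference of Prdm16 exceeded the mean difference at E11.5, E13.5 and E15.5 by 1.66 ± 0.19 (adjusted p = 2.7e-05). Mecom read 132, 155 and 165 in the cKO-labelled libraries and 87.7, 118 and 106 in the WT-labelled ones, a difference of 0.54 ± 0.17 (adjusted p = 0.028). This call was lost without WT library A or C or cKO library B or C, where the adjusted p was 0.055 to 0.089, and at 0.11 in the fit over all 8 groups without 5 libraries C. Leaving out WT E15.5 library B as well did not restore the call. Pdzrn3, a ubiquitin ligase gene named here outside the naming rule, read 13938, 14651 and 14919 with the cKO label against 3996, 3585 and 3311 with the WT label, with the cKO-labelled libraries all above the WT-labelled ones (2.0 ± 0.09, adjusted p = 3.4e-06).

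**Figure D1:**
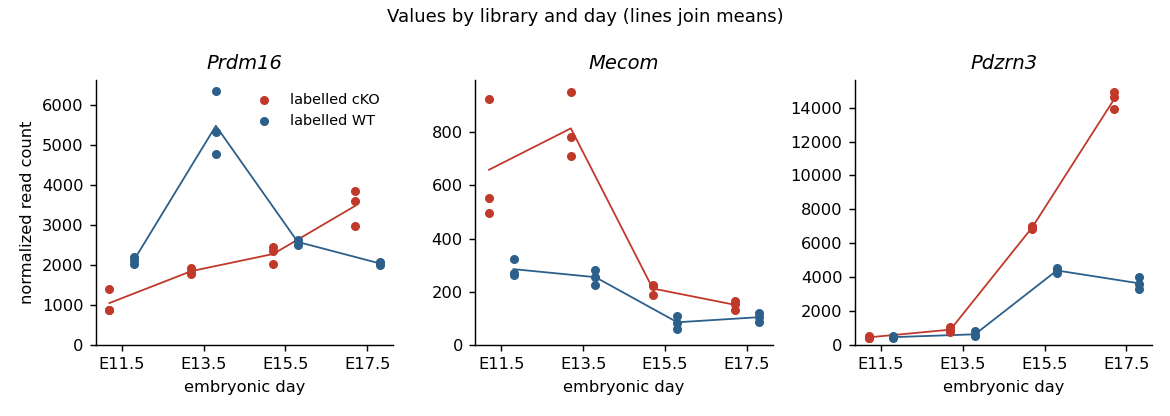
Normalized read count (y axis) of Prdm16, Mecom and Pdzrn3 in each library by embryonic day (x axis), with lines through the means of the libraries labelled cKO and WT. At E17.5 Prdm16 lies at 2983 to 3866 in the libraries labelled cKO and at 2000.5 to 2070.5 in those labelled WT.

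Of the 15820 genes tested, 7602 (48.1%) passed an adjusted p of 0.05. Among them 3355 (21.2% of the genes tested) were higher and 4247 (26.8%) lower in the libraries labelled cKO. An unadjusted p under 0.05 was reached by 54.4% of the genes tested, edgeR called 48.3%, and the groups did not overlap at 9334 genes (59.0%). Differences of 1 log2 unit or more were found at 2677 of the genes called (16.9% of those tested), of which 1096 (6.93%) were higher and 1581 (9.99%) lower. With so many genes called, a gene list has to be read against these shares. Most genes shown from a list are its called members with the largest differences. Their size and their separate groups are therefore no measure of the whole list.

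The balance of directions depended on the scaling. The deposited size factors left the median gene at -0.04, and 44.1% of the genes called were higher in the libraries labelled cKO. TMM factors put the median at 0.01 and that share at 50.3%. Scaling to library totals moved the median to 0.12 and the share to 61.7% (4950 higher, 3071 lower). Differences near 0 therefore have no firm sign, whereas the list medians quoted below as 0.9 or more in size kept their direction under all 3 scalings.

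**Figure D2:**
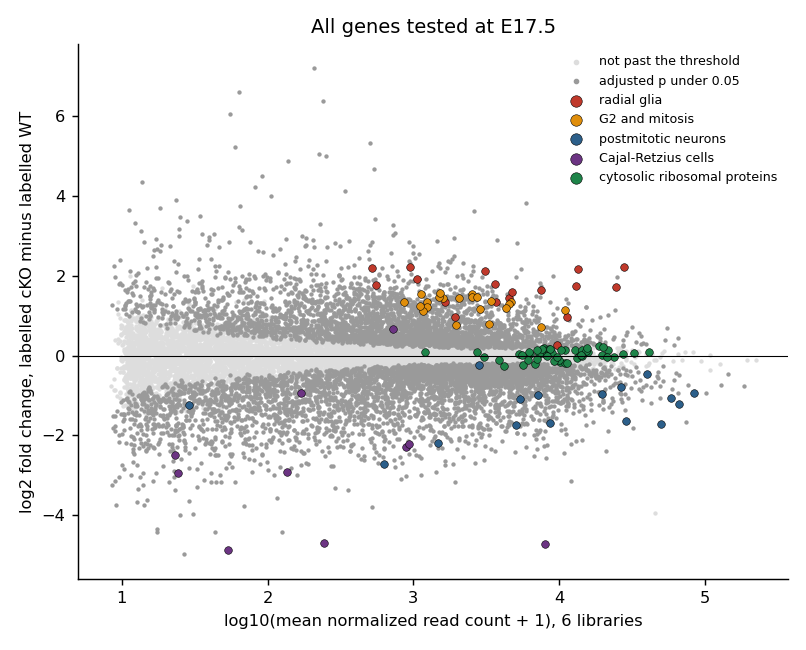
Log2 fold change at E17.5 (libraries labelled cKO minus WT, y axis) against log10 of the mean normalized read count + 1 over the 6 libraries (x axis) for the 15820 genes tested, with 5 gene lists coloured. Radial glia and mitosis genes lie above 0, postmitotic neuron and Cajal-Retzius genes mostly below it, and ribosomal protein genes around it.

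Radial glia genes were higher in the libraries labelled cKO. Of 18 listed genes, all of which were tested, 17 rose, 0 fell and the median was 1.73, beside a median of -0.04 over all genes. Vim, an intermediate filament of radial glia, read 48338, 43247 and 45694 in the cKO-labelled libraries and 11289, 10258 and 8140.0 in the WT-labelled ones (2.22 ± 0.12, adjusted p = 7.9e-06). Slc1a3, the glutamate transporter GLAST, read 22866, 23592 and 19590.5 with the cKO label against 4702, 4821 and 5107 with the WT label (2.17 ± 0.09, adjusted p = 2.8e-06). Neither gene had overlapping groups, and in both the lowest cKO-labelled library was over the highest WT-labelled one by a wide margin.

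The transcription factors that maintain neural stem cells followed. Sox2 read 5926, 5294 and 5639 with the cKO label and 1781, 1609.6 and 1451 with the WT label (1.80 ± 0.09, adjusted p = 7e-06). Pax6, which defines dorsal progenitors, read 5338, 5358 and 5026 with the cKO label against 2286, 2053 and 1919 with the WT label (1.33 ± 0.09, adjusted p = 1.4e-05). Sox3 was highest in the list, at 1718, 1305 and 1633 with the cKO label against 477, 327 and 228 with the WT label (2.23 ± 0.24, adjusted p = 0.00012). The groups were apart for all 3, and WT library C was the lowest library for each of them. Lhx2, a selector of cortical identity, was the 1 member that did not pass (0.27 ± 0.13, adjusted p = 0.12).

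Genes first used to mark outer radial glia, the basal stem cells that are abundant in human and ferret cortex, were also higher. Among 10 members 8 rose, 0 fell and the median was 1.0. Hopx, a homeodomain-only cofactor, read 1461, 909 and 1245 in the libraries labelled cKO and 229.8, 192 and 179 in those labelled WT (2.56 ± 0.18, adjusted p = 1.8e-05). Itgb5, an integrin subunit, read 1707, 1972 and 1915 with the cKO label against 293, 321 and 345 with the WT label (2.54 ± 0.10, adjusted p = 2.4e-06). These groups stood far apart. Tnc, the matrix protein tenascin C, read 33001, 45325 and 40384 with the cKO label against 8273, 10240.0 and 12002 with the WT label (1.96 ± 0.16, adjusted p = 2.9e-05). When all 8 groups shared 1 spread and 5 libraries C that can be nearly rebuilt by mixing A and B were left out (called the 8-group fit below), the adjusted p of Tnc was 0.09. That fit holds 2 WT-labelled E15.5 libraries, of which B stands apart, with a sum of meningeal and fibroblast genes of 135648 against 2172 in A. Leaving B out as well did not restore the call of Tnc (difference 1.96).

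Intermediate progenitor genes rose at 11 of 14 members, with none lower and a median of 0.95. Eomes (Tbr2), which defines these cells, read 14893, 13142 and 12227 with the cKO label and 6693, 5767 and 5184 with the WT label (1.19 ± 0.11, adjusted p = 6.5e-05). Neurod1, a factor of newborn neurons and their precursors, read 4404, 4037 and 3886 with the cKO label against 1469, 1364 and 1427 with the WT label (1.53 ± 0.08, adjusted p = 7e-06). Gadd45g, a growth arrest gene of cells about to differentiate, had the largest difference of the list, at 1551, 1337 and 1763 with the cKO label against 467, 289 and 198 with the WT label (2.36 ± 0.27, adjusted p = 0.00016). No library crossed groups at these 3 genes. Neurog1 (-0.02), Hes6 (0.31) and Elavl4 (0.12) did not pass.

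Genes of early cortical progenitors did not move as a body. Of 8 tested, 1 rose and 2 fell, with a median of 0.06. The gene that rose was Dct, known from melanin synthesis and expressed in forebrain progenitors, which read 1535, 749 and 1671 in the cKO-labelled libraries and 131, 88.7 and 182 in the WT-labelled ones (3.26 ± 0.34, adjusted p = 9.6e-05). Hmga2, a chromatin protein of young neural stem cells, fell to 29.1, 49.9 and 35.2 with the cKO label against 118, 74.5 and 88.9 with the WT label (-1.29 ± 0.26, adjusted p = 0.0033), and Lin28b, which blocks let-7 processing, to 26.3, 31.6 and 14.3 with the cKO label against 41.7, 55.8 and 67.2 with the WT label (-1.20 ± 0.32, adjusted p = 0.014). Without WT library C the Lin28b call was lost and 1 gene of the list fell, and without WT library A 3 rose.

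In bulk tissue, more cells of a type and more RNA per cell cannot be told apart. The depth of tissue cut was not among the details in the labels, and that depth and the genotype cannot be told apart either. Summed over the list, radial glia genes read 217685, 198054 and 189651 in the cKO-labelled libraries at E17.5 and 68509, 65376 and 61903 in the WT-labelled ones. At E15.5 the same sum was 99664, 106285 and 101279 with the cKO label and 87425, 83495 and 84375 with the WT label. The E17.5 sums with the cKO label were above both E15.5 groups and those with the WT label below both.

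NOTCH signalling keeps radial glia from differentiating. Ligands on neighbouring cells release the receptor's intracellular domain, which acts with RBPJ on Hes and Hey genes. Of 15 pathway genes, 11 rose, 3 fell and the median was 0.98, and Hes1 and Hes5 are on the radial glia list as well. The target Hes5 read 968, 689 and 907 in the libraries labelled cKO and 229, 206 and 136 in those labelled WT (2.18 ± 0.21, adjusted p = 6.9e-05). Hes1, a second target, read 845, 905 and 829 with the cKO label against 289.7, 275 and 197 with the WT label (1.77 ± 0.15, adjusted p = 4.2e-05). Lfng, a glycosyltransferase that tunes the receptor, read 2432, 2021 and 2036 with the cKO label against 581, 512 and 403 with the WT label (2.12 ± 0.14, adjusted p = 1.6e-05). The groups did not overlap for any of these 3.

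Receptors and ligands of the pathway moved differently. Notch1 (1.08), Notch2 (0.78) and Notch3 (1.02) rose, as did the ligands Dll1 (0.41) and Dll3 (0.78) of differentiating progenitors. The Jagged ligands fell. Jag2 read 326, 501 and 814 with the cKO label and 1335, 1337 and 1044 with the WT label (-1.27 ± 0.28, adjusted p = 0.0058), where cKO library C came nearest to the WT-labelled ones, and Jag1 had a difference of -0.84 ± 0.16 (adjusted p = 0.0025). The third gene to fall was Heyl (-0.47 ± 0.15, adjusted p = 0.026).

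The promoters of Hes5 and Lfng are shown because their genes moved together and carry the word GTGGGAA (or its complement TTCCCAC), which RBPJ is known to bind. They are the 250 bases before the RefSeq start site (GRCm38.p6), 5′ to 3′ on the gene's strand, with matches in capitals. Hes5 is at chr4:154960673-154960922 (plus strand) and Lfng at chr5:140607091-140607340 (plus strand).
Hes5: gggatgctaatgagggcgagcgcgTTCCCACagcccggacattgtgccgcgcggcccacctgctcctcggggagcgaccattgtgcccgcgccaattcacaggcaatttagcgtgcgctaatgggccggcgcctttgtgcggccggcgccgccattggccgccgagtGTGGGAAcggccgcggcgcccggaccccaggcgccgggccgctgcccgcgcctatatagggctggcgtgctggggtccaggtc
Lfng: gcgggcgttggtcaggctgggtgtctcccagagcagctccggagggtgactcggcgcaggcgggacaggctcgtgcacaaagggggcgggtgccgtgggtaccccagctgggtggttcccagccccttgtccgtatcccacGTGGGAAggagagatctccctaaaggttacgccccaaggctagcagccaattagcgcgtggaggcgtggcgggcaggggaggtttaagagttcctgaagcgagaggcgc
Matches start 226 and 83 bases before the Hes5 start site and 109 bases before that of Lfng. Searched on both strands, the word was in 3 of 11 list promoters found in the RefSeq table (Hes5, Lfng and Hey2) and in 1461 of all 27025 promoters (5.41%). A match describes the letters and is not a known site.

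Cell division genes were higher throughout the lists used. All 22 S phase genes and all 22 genes of G2 and mitosis rose, with medians of 1.08 and 1.34. Gmnn, the licensing inhibitor geminin, read 1019, 869 and 765 in the cKO-labelled libraries and 301, 304 and 245 in the WT-labelled ones (1.64 ± 0.14, adjusted p = 4.2e-05). Mcm3, a subunit of the replicative helicase, read 5387, 5365 and 4721 with the cKO label against 2162, 1700.5 and 1594 with the WT label (1.51 ± 0.12, adjusted p = 2.9e-05). Uhrf1, which carries DNA methylation through replication, read 5026, 5245 and 4897 with the cKO label against 2126, 1795 and 1601 with the WT label (1.47 ± 0.11, adjusted p = 2e-05). In each of these genes the 3 cKO-labelled libraries lay over all 3 WT-labelled ones.

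Among mitotic genes, Cdk1, the kinase that drives entry into mitosis, read 4286, 3773 and 3046 with the cKO label and 1494, 1294 and 1175 with the WT label (1.48 ± 0.14, adjusted p = 6e-05). Its partner Ccnb1 (cyclin B1) read 4290.2, 3844 and 3083 with the cKO label against 1422, 1179 and 1242 with the WT label (1.54 ± 0.13, adjusted p = 3.9e-05). Aurkb, the kinase of the chromosomal passenger complex, read 2494, 2289 and 2052 with the cKO label against 971, 746 and 628 with the WT label (1.56 ± 0.15, adjusted p = 7.9e-05). The smallest difference of the mitotic list was that of Mki67, the source of the Ki-67 antigen (0.71 ± 0.16, adjusted p = 0.0065), and that of the S phase list belonged to Mcm7 (0.53 ± 0.10, adjusted p = 0.0019).

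D cyclins and CDK inhibitors rose at 4 of 8 genes tested and fell at none, and the median was 0.36. Ccnd2, the main D cyclin of cortical progenitors, read 32465, 34853 and 32113 in the libraries labelled cKO and 16371, 14313 and 14692 in those labelled WT (1.13 ± 0.09, adjusted p = 2.3e-05). Of the inhibitors, Cdkn2c (p18) read 1419, 1181 and 1145 with the cKO label against 523, 426 and 399 with the WT label (1.48 ± 0.13, adjusted p = 5e-05) and Cdkn1b (p27) 13841, 12518 and 12242 with the cKO label against 9592, 9119.9 and 8679 with the WT label (0.49 ± 0.08, adjusted p = 0.0011). A cyclin and its inhibitors were thus higher in the same libraries. Ccnd1 (-0.13) and Cdkn1c (-0.18) did not pass.

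Promoters of 4 cell cycle genes are shown because the lists moved as a block and because such promoters are known for E2F words in S phase genes and for the cell cycle homology region (CHR) in mitotic genes. The E2F words searched were TTTCCCGC, TTTGGCGC, TTTCGCGC and TTTGCCGC, the CHR word was TTTGAA, and both strands were read. The windows are again 250 bases before the RefSeq start (GRCm38.p6), on the gene's strand, with E2F words in capitals in Cdc6 and Mcm5 and CHR words in capitals in Cdk1 and Cdc20. Cdc6, which loads the helicase, is at chr11:98907901-98908150 (plus), and Mcm5, a helicase subunit, at chr8:75109259-75109508 (plus). Cdk1 is at chr10:69352913-69353162 (minus), and Cdc20, an activator of the anaphase-promoting complex, at chr4:118437344-118437593 (minus).
Cdc6: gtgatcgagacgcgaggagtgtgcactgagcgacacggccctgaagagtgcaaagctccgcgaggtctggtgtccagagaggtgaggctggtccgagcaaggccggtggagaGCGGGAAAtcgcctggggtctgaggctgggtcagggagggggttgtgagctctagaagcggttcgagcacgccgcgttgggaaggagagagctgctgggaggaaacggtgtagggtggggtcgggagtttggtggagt
Mcm5: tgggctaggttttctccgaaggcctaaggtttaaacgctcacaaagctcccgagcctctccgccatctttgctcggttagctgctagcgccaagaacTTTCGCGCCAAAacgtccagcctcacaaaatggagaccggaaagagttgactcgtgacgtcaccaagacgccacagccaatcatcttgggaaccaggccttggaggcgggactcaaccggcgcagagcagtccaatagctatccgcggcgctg
Cdk1: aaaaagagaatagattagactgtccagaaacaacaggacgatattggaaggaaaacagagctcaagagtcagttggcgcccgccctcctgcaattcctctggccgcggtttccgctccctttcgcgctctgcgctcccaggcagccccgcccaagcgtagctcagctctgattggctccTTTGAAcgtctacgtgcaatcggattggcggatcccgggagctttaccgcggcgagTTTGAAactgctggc
Cdc20: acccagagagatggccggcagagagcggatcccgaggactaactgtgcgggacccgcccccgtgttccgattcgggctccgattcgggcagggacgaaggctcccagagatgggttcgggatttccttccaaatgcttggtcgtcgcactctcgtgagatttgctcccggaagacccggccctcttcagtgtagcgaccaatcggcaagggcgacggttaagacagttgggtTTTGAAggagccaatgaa
Mcm5 holds 2 E2F words that overlap, at 153 and 149 bases before the start. The Cdk1 window also holds the E2F word TTTCGCGC, at 131 bases before the start, shown in lower case. An E2F word was in 4 of 16 S phase promoters (Cdc6, Mcm5, Mcm6 and Mcm7) and in 517 of 27025 promoters in all (1.91%). A CHR word was in 6 of 19 mitotic promoters and in 16.3% of all promoters, and CCAAT was in 16 of 19 and in 34.5%. The differences of the genes shown were 1.23 ± 0.13 for Cdc6, 1.21 ± 0.11 for Mcm5, 1.48 ± 0.14 for Cdk1 and 1.45 ± 0.14 for Cdc20.

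Neuron genes were lower in the libraries labelled cKO. Of 16 genes of postmitotic neurons 15 fell and none rose, with a median of -1.15. Tubb3, a neuronal tubulin, read 36704, 36618 and 47188 in the cKO-labelled libraries and 96652, 99852 and 82592 in the WT-labelled ones (-1.22 ± 0.13, adjusted p = 0.00011). Dcx, a microtubule protein of migrating neurons, read 50739, 61427 and 60182 with the cKO label against 100897, 102560.0 and 125928 with the WT label (-0.93 ± 0.12, adjusted p = 0.00037). Both groups stayed apart at both genes.

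Mapt and Nefl, of the same list, fell too. Mapt (tau) read 18684, 23687 and 27857 with the cKO label and 67789, 79587 and 82021 with the WT label (-1.72 ± 0.15, adjusted p = 4.4e-05). Nefl, the light neurofilament, read 97.2, 155 and 293 with the cKO label against 1031, 965 and 1246 with the WT label (-2.70 ± 0.33, adjusted p = 0.00025). In each of these the cKO-labelled library A was lowest and C highest of its group. Rbfox3 (NeuN) was the member that did not pass (-0.24 ± 0.10, adjusted p = 0.083). The 3154 genes with exons of 7374 bases or more had a median difference of -0.18 and the 3156 genes with at most 2227 bases one of 0.04, and whether transcript length has a part in the neuron lists was not tested.

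Deep-layer neurons, which project out of the cortex, showed the same direction at 11 of 12 genes, with none higher and a median of -1.22. Bcl11b (Ctip2) had a difference of -1.27 ± 0.15 (adjusted p = 0.00018) and Tbr1 one of -1.07 ± 0.08 (adjusted p = 2.9e-05). Ldb2, a LIM-domain binding cofactor, read 579, 927 and 1117 in the cKO-labelled libraries and 3462, 3832 and 4342 in the WT-labelled ones (-2.19 ± 0.21, adjusted p = 7.6e-05). Tshz3, a zinc-finger regulator of corticostriatal neurons, read 829.5, 1169.7 and 1601 with the cKO label against 4099, 4447 and 4730.2 with the WT label (-1.93 ± 0.20, adjusted p = 0.00011). At both genes the groups were far apart and cKO library A was the lowest of all. Etv1 did not pass (0.09). The summed list read 28057, 33434 and 35034 with the cKO label and 76227, 72412 and 75992 with the WT label.

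Upper-layer genes were split, with 3 of 12 higher, 6 lower and a median of -0.37, beside 21.2% higher and 26.8% lower over all genes. Mef2c, a factor of maturing neurons, read 5486, 6834 and 7798 with the cKO label and 30412, 34952 and 39972 with the WT label (-2.39 ± 0.14, adjusted p = 1.1e-05). Rorb, of layer 4 neurons, read 581, 760.1 and 708 with the cKO label against 2062, 1657 and 2056 with the WT label (-1.50 ± 0.13, adjusted p = 4.5e-05). The 3 that rose were Pou3f2 (0.47), Pou3f3 (0.35) and Mdga1 (0.57), of which the POU factors are also made by progenitors. In the 8-group fit 1 of the list was higher. Subplate genes fell at 4 of 8 and rose at 1 (median -0.95). Gabra5, a GABA receptor subunit, read 167, 203 and 334 with the cKO label against 601, 799 and 1029 with the WT label (-1.81 ± 0.27, adjusted p = 0.00068), and Ctgf was the 1 that rose (0.75 ± 0.15, adjusted p = 0.0034). Without WT library A or cKO library C 2 of the list were higher, and in the 8-group fit none was.

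Cajal-Retzius cells lie at the outer surface of the cortex, secrete reelin and arise from the hem, septum and ventral pallium. Their genes differed most of the cell type lists, with 9 of 10 lower, 1 higher and a median of -2.71. Reln read 289, 417 and 1507 in the libraries labelled cKO and 13554, 14611 and 17169.8 in those labelled WT (-4.73 ± 0.50, adjusted p = 0.00011). Trp73 (p73), expressed by hem-derived cells, read 9.09, 7.13 and 65.6 with the cKO label against 539.8, 426 and 414 with the WT label (-4.70 ± 0.68, adjusted p = 0.00056). Lhx5, a LIM homeodomain factor, read 0.909, 1.02 and 9.5 with the cKO label against 124, 105 and 76.3 with the WT label (-4.88 ± 0.61, adjusted p = 0.00027). Lhx5 reached the value minimum through the WT-labelled libraries alone, so that its groups had to differ. The cKO-labelled library C read higher than A and B at all 3 genes.

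Leaving that library out moved these differences to -5.43 for Reln, -5.66 for Trp73 and -5.68 for Lhx5. Calb2 (calretinin) read 28.2, 16.3 and 58.0 with the cKO label and 261, 210.2 and 232 with the WT label (-2.92 ± 0.38, adjusted p = 0.00034). Nhlh2, a bHLH factor also made by other young neurons, was the 1 member that rose (0.68 ± 0.11, adjusted p = 0.001). Summed, the list read 1866, 2047 and 3487 in the cKO-labelled libraries and 18108, 19270.1 and 21929.6 in the WT-labelled ones. At E15.5 the sums were 16375, 14017 and 16301 with the cKO label and 11917, 12255 and 11987 with the WT label. Since these cells lie far from the ventricle, the amount of outer cortex in each dissection and the genotype cannot be told apart.

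**Figure D3:**
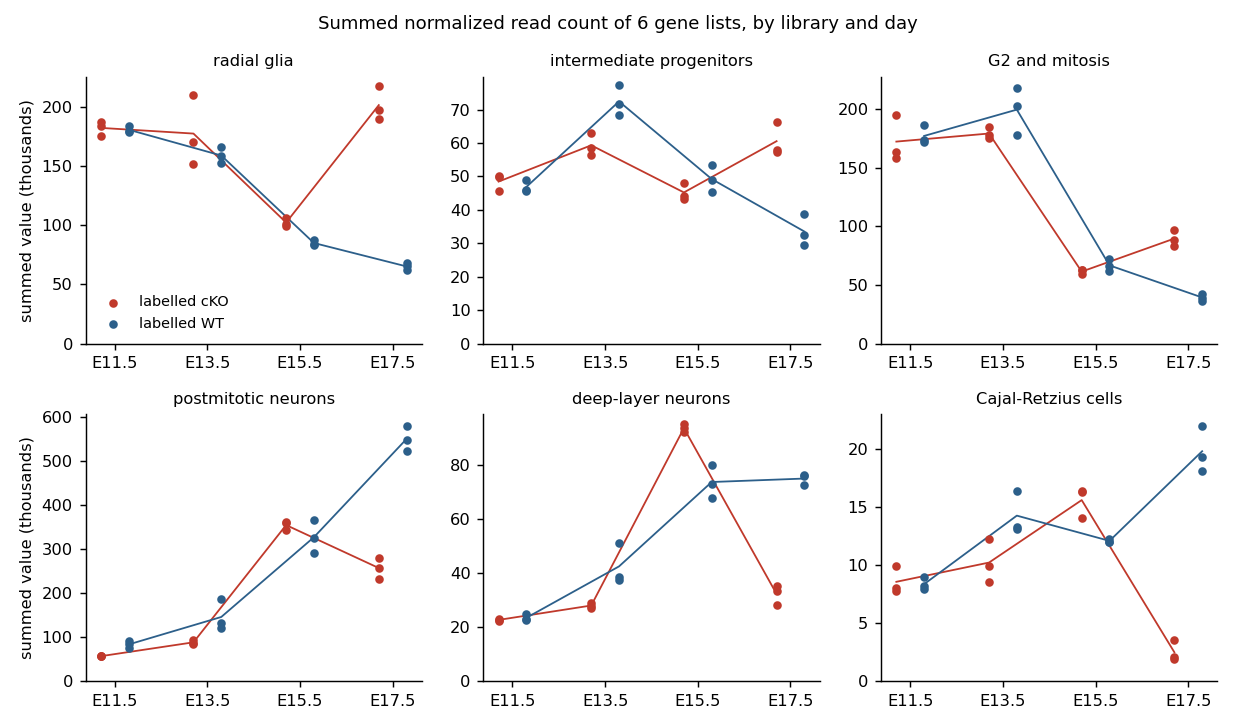
Summed normalized read count in units of 1000 (y axis) of 6 gene lists in each library by embryonic day (x axis), with lines through the means of the libraries labelled cKO and WT. At E17.5 the radial glia, intermediate progenitor and mitosis sums are higher, and the 3 neuron sums lower, in every library labelled cKO than in every library labelled WT.

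Synapse genes fell with the neuron genes. Among 21 glutamate receptor and postsynaptic genes 19 fell and 1 rose, with a median of -1.09, and among 19 presynaptic genes 17 fell and 1 rose, with a median of -1.06. Grin2b, the NMDA receptor subunit of immature synapses, read 1369, 2399 and 4069.9 in the cKO-labelled libraries and 16879, 18481 and 28731 in the WT-labelled ones (-3.13 ± 0.35, adjusted p = 0.00016). Camk2b, a subunit of the calcium-dependent kinase CaMKII, read 2453, 3354 and 4497 with the cKO label against 16570.2, 19478 and 17873 with the WT label (-2.43 ± 0.19, adjusted p = 2.8e-05). The groups were separate at both genes, and cKO library A was lowest.

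The exceptions were Grik1, a kainate receptor subunit, which rose (0.97 ± 0.12, adjusted p = 0.00024), and Syn2 (synapsin 2), which rose as well (0.72 ± 0.09, adjusted p = 0.00031). By edgeR 2 presynaptic genes were higher, and in the 8-group fit none was. Syt4, an unusual synaptotagmin, read 3731, 4233 and 4515 with the cKO label and 13761, 21450.1 and 24354 with the WT label (-2.22 ± 0.19, adjusted p = 4.2e-05).

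Axon guidance and migration genes went both ways, with 7 of 21 higher, 9 lower and a median of -0.17. The same shares over all genes were 21.2% and 26.8%. Slit1, a repulsive ligand, fell to 427, 811 and 1310.4 with the cKO label, against 3354, 3375 and 3013 with the WT label (-2.08 ± 0.33, adjusted p = 0.00093). Its receptor Robo1 read 3141, 4707 and 7159 with the cKO label against 14473, 14393 and 18119 with the WT label (-1.72 ± 0.25, adjusted p = 0.00064). Vldlr, a reelin receptor, read 1854, 2316 and 2282 with the cKO label against 4929.8, 5352 and 6026 with the WT label (-1.34 ± 0.11, adjusted p = 3.7e-05), and Dab1, its adaptor, also fell (-1.33 ± 0.10, adjusted p = 2.9e-05). Ntn1, the guidance cue netrin 1, rose (357, 518 and 443 with the cKO label against 119, 122 and 122 with the WT label, 1.84 ± 0.15, adjusted p = 3.7e-05), but in the 8-group fit it did not pass (adjusted p = 0.12) and 3 of the list were higher, although it passed there without WT E15.5 library B (adjusted p = 0.023).

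**Figure D4:**
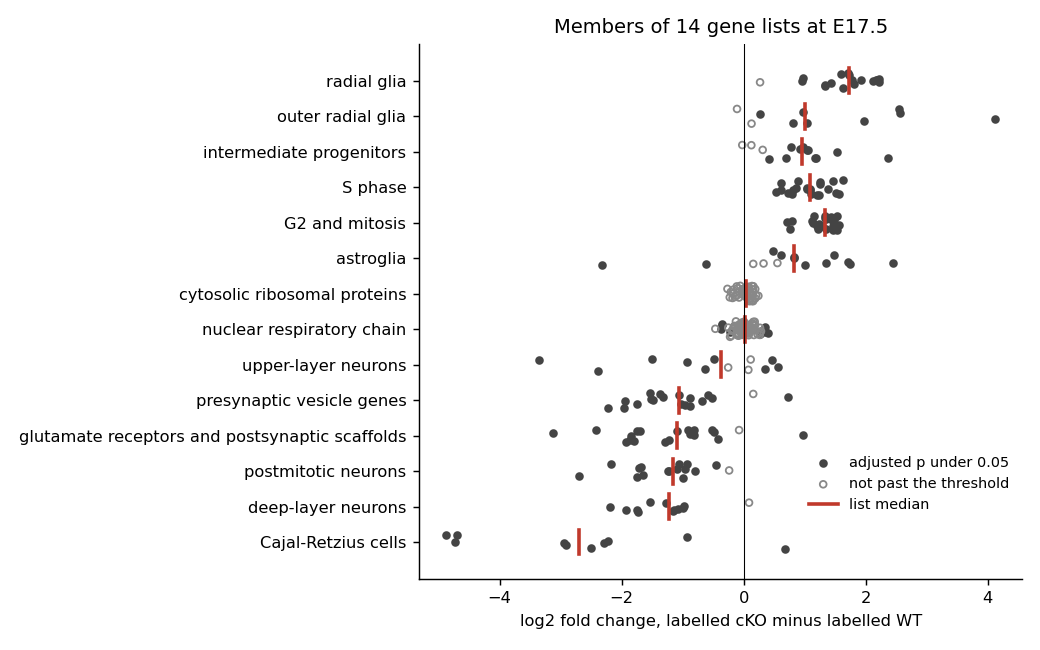
Log2 fold change at E17.5 (libraries labelled cKO minus WT, x axis) of the tested members of 14 gene lists (rows), with filled points for adjusted p under 0.05, open points for the rest and a red bar at the list median. The medians run from 1.73 for radial glia to -2.71 for Cajal-Retzius cells, with 0.03 for ribosomal protein genes.

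Glial genes rose in part. Astroglia genes were higher at 10 of 15 and lower at 2, with a median of 0.82, and several of them, such as Aldoc and Fgfr3, are also expressed by radial glia. Hepacam, an adhesion protein of astrocytes, read 747, 715 and 668 in the libraries labelled cKO and 93.0, 138 and 169 in those labelled WT (2.45 ± 0.20, adjusted p = 3.5e-05). Gfap, which defines mature astrocytes, went the other way at low values, 12.7, 6.11 and 10.5 with the cKO label against 53.4, 41.6 and 59.2 with the WT label (-2.32 ± 0.31, adjusted p = 0.00037). Aqp4, the water channel of astrocyte end feet, read 53.6, 72.3 and 75.1 with the cKO label against 40.6, 38.3 and 58.1 with the WT label with overlapping groups and did not pass (adjusted p = 0.081), though it passed without WT library C or cKO library A. In the 8-group fit 5 astroglia genes were higher and 1 lower.

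Gliogenic transcription factors rose at 6 of 12 and fell at 1 (median 0.60). Sox9, needed for the switch to gliogenesis, read 3868, 3421 and 3166 with the cKO label and 1068, 876 and 792 with the WT label (1.94 ± 0.12, adjusted p = 1.4e-05). Sox8 read 2728, 2380.1 and 2204 with the cKO label against 585, 498 and 458 with the WT label (2.25 ± 0.12, adjusted p = 7.5e-06). Zfp36l1, an RNA-binding protein, read 3002, 2619 and 3014 with the cKO label against 669, 549.7 and 466 with the WT label (2.37 ± 0.13, adjusted p = 8.4e-06). None of these groups overlapped. Nfia (0.07) and Nfib (0.12), nuclear factors of the same switch, did not pass, and Nfix fell (-0.77 ± 0.17, adjusted p = 0.0051), which it did not in the 8-group fit.

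Oligodendrocyte lineage genes rose at 6 of 12, 3 of them in the 8-group fit, and fell at 1 (median 0.46). Olig2, which defines the lineage and is also made by some progenitors, read 641, 614 and 626 with the cKO label and 213, 344 and 391.9 with the WT label (1.03 ± 0.20, adjusted p = 0.0031). Pdgfra, the receptor of oligodendrocyte precursors, read 942, 1388 and 1121 with the cKO label against 681, 884 and 1302 with the WT label, with overlapping groups (adjusted p = 0.31). It passed without WT library C, at 0.55. Mbp, a myelin gene with an early form in neurons, fell to 322, 362 and 380.1 with the cKO label against 862, 904 and 957 with the WT label (-1.36 ± 0.10, adjusted p = 2.5e-05).

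Genes of motile cilia, as on ependymal cells, were mostly under the minimum, with 6 of 15 listed genes tested. Foxj1, the master factor of these cells, rose to 278, 276 and 309.8 with the cKO label, against 165, 120.4 and 111 with the WT label (1.14 ± 0.17, adjusted p = 0.00066). Against it, 4 genes fell (median of the list -1.59), namely the cyclin Ccno (-1.58), the axoneme genes Spag6 (-1.72) and Dnah9 (-1.60), and Dnah5. Dnah5, a dynein heavy chain of motile cilia, read 8.18, 12.2 and 20.9 with the cKO label against 62.0, 86.5 and 129 with the WT label (-2.69 ± 0.38, adjusted p = 0.00047). Choroid plexus genes were tested at 3 of 11, and 1 of them fell, though none did in the 8-group fit. Ttr, which defines that epithelium, read 9.99, 23.4 and 10.5 with the cKO label against 6.41, 6.57 and 13.7 with the WT label, near the minimum and with overlapping groups (adjusted p = 0.26).

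Signalling genes held some of the largest differences. Fibroblast growth factors act through Fgfr1 to Fgfr3 and the kinase ERK, and Etv and Spry genes are their usual targets. Of 16 FGF genes tested 10 rose and 5 fell, with a median of 0.80. Fgf15, a ligand of early forebrain, read 119, 147 and 112 in the cKO-labelled libraries and 0, 0 and 1.14 in the WT-labelled ones. The WT-labelled value rests on 1 read in all, and the ratio of reads was 342 with a 95% counting interval of 61.0 to 1.35e+04 (adjusted p = 8.4e-06). Fgf15 reached the value minimum through the cKO-labelled libraries alone, so that its groups had to differ. Etv4, an ETS factor, read 1808, 1438 and 1497 with the cKO label against 324, 282 and 332 with the WT label (2.33 ± 0.12, adjusted p = 6.8e-06), and Fgfr3 4275, 4222 and 3574 with the cKO label against 1400.3, 1295 and 1003 with the WT label (1.72 ± 0.13, adjusted p = 2.7e-05). Both were apart in every library.

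Other ligands fell. Fgf10 read 39.1, 69.3 and 76.0 with the cKO label and 274, 279 and 384 with the WT label (-2.37 ± 0.26, adjusted p = 0.00014), and Fgf9 read 8.18, 19.4 and 19.0 with the cKO label against 44.9, 59.1 and 104 with the WT label (-2.09 ± 0.40, adjusted p = 0.0027). Fgf18 (-1.39) and Fgf13 (-0.65), an intracellular member, fell too. Dusp6, a phosphatase induced by ERK, fell (-0.85 ± 0.10, adjusted p = 0.00022), while Spry1 (0.88), Spry2 (0.80), Spry4 (0.81) and Etv5 (1.27) rose. The FGF targets thus did not share 1 direction.

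Retinoic acid is made from retinol and cleared by Cyp26 enzymes. The list had 4 of 11 genes higher and 1 lower, beside 21.2% and 26.8% over all genes, with a median of -0.01. Those 4 included some of the largest differences in the data. Cyp26b1 read 906, 1039 and 971 in the libraries labelled cKO and 10.7, 27.4 and 42.2 in those labelled WT (5.32 ± 0.40, adjusted p = 2.4e-05). Rxrg, a nuclear receptor partner of retinoic acid receptors, read 328, 241 and 223 with the cKO label against 8.55, 9.85 and 5.70 with the WT label (4.88 ± 0.25, adjusted p = 7e-06). Both were low in every WT-labelled library. Rxrg reached the value minimum through the cKO-labelled libraries alone, so that its groups had to differ. The synthesis gene Rdh10 (0.05) and the receptor Rara (-0.21) did not pass, and the receptor Rarg fell (-0.65 ± 0.12, adjusted p = 0.0023) except in the 8-group fit, where it passed without WT E15.5 library B (adjusted p = 0.038).

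WNT targets and antagonists rose at 5 of 11 and fell at none (median 0.21), beside 21.2% higher and 26.8% lower over all genes. By an unadjusted p and by edgeR, too, none was lower. Sfrp1, a secreted antagonist of the ventricular zone, read 21976, 21949 and 19701 with the cKO label and 9760.2, 8919 and 8516 with the WT label (1.23 ± 0.09, adjusted p = 1.8e-05), and Nkd1, a feedback inhibitor, read 876, 1007 and 1003 with the cKO label against 474, 438 and 363 with the WT label (1.18 ± 0.12, adjusted p = 0.0001). The general target Axin2 did not pass (0.10 ± 0.14, adjusted p = 0.56). Of the ligands and R-spondins of the cortical hem and nearby tissue, 7 of 14 were tested, and 1 was higher and 4 lower (2 in the 8-group fit, median -0.78). Rspo2, an amplifier of WNT signals, read 46.3, 74.4 and 102 with the cKO label against 280.1, 431 and 554 with the WT label (-2.51 ± 0.32, adjusted p = 0.00028), and Wnt7b, made by deep-layer neurons among others, 4132, 5363 and 4266 with the cKO label against 11873, 11519 and 10412 with the WT label (-1.30 ± 0.11, adjusted p = 4.1e-05).

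BMP pathway and ID genes rose at 7 of 10 and fell at 1 (median 0.71). Bmp7 read 591, 510.5 and 669.9 in the cKO-labelled libraries and 171, 186 and 186 in the WT-labelled ones (1.69 ± 0.13, adjusted p = 2.5e-05). Id4, an inhibitor of bHLH factors, read 3201, 2955 and 2325 with the cKO label against 1084, 912 and 869 with the WT label (1.56 ± 0.13, adjusted p = 4.4e-05), and Id1 553, 366 and 492 with the cKO label against 193, 209 and 139 with the WT label (1.38 ± 0.20, adjusted p = 0.0006). Id2, which is strong in neurons of the cortical plate, was the member that fell (-0.90 ± 0.10, adjusted p = 0.00013). Areal and dorsal patterning genes rose at 5 of 13 and fell at 3, 1 of them in the 8-group fit (median 0.27). Emx2, of the caudal and medial progenitors, read 2637, 2295 and 2152 with the cKO label against 1072, 865 and 868 with the WT label (1.34 ± 0.12, adjusted p = 4.4e-05). Emx1 (-0.04) and Nr2f1 (-0.12) did not pass. Hippocampal field genes rose at 4 of 9 and fell at 2, 1 of them in the 8-group fit (median 0.09). Over all genes 21.2% were higher and 26.8% lower. Prox1, a factor of dentate granule cells, read 608, 705 and 665 with the cKO label against 226, 326 and 422 with the WT label (1.06 ± 0.20, adjusted p = 0.0026).

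The 12 genes with the largest rise under the naming rule include Fgf15, Cyp26b1, Rxrg and Moxd1 from the lists above. The rule took called genes whose groups do not overlap, so that neither is a result about them. Of these 12 genes 7 (Pdlim3, Fgf15, Has2, Slc35d3, Dbx1, Rxrg and Upp1) reached the value minimum through the cKO-labelled libraries alone, so that their groups had to differ and their p-values say no more than that. Pdlim3, a PDZ and LIM domain protein known from muscle, read 457, 344 and 428 in the libraries labelled cKO and 2.14, 1.09 and 2.28 in those labelled WT (7.20 ± 0.25, adjusted p = 1.4e-06). Has2, which makes hyaluronan, read 495, 511 and 416 with the cKO label against 2.14, 9.85 and 4.56 with the WT label (6.37 ± 0.40, adjusted p = 1.3e-05). Grin2c, an NMDA receptor subunit, read 1044, 842 and 1209.7 with the cKO label against 40.6, 47.1 and 30.8 with the WT label (4.68 ± 0.20, adjusted p = 2.8e-06). The WT-labelled libraries were near the floor for the first of these and low for the others.

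Tac2, the neurokinin B precursor, read 629, 386 and 449 with the cKO label and 10.7, 19.7 and 12.5 with the WT label (5.01 ± 0.26, adjusted p = 7.5e-06). Dbx1, a homeobox gene of ventral pallial progenitors, read 121, 129 and 96.0 with the cKO label against 2.14, 3.28 and 1.14 with the WT label (5.24 ± 0.32, adjusted p = 1.1e-05). Moxd1, a monooxygenase on the outer radial glia list, read 591, 624 and 695 with the cKO label against 25.7, 42.7 and 41.0 with the WT label (4.12 ± 0.20, adjusted p = 5.9e-06). All 3 were low in every WT-labelled library and at 96.0 or more in every cKO-labelled one. Slc35d3, a transporter-like protein, read 117, 113 and 91.2 with the cKO label against 1.07, 1.09 and 0 with the WT label, a ratio of reads of 146 (95% counting interval 40.1 to 1.21e+03, adjusted p = 1.1e-05) with 2 reads in all under the WT label.

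Upp1, uridine phosphorylase, read 181, 162 and 177 in the cKO-labelled libraries and 3.21, 9.85 and 9.11 in the WT-labelled ones (4.49 ± 0.36, adjusted p = 2.9e-05). Pappa, a protease of IGF-binding proteins, read 211, 209.9 and 175 with the cKO label against 10.7, 17.5 and 7.97 with the WT label (3.99 ± 0.28, adjusted p = 1.8e-05). At such low WT values the size of a difference depends on the pseudocount, and with a pseudocount of 5 that of Pdlim3 was 5.92 and that of Has2 5.57. In all, 109 genes called higher had a larger difference than Sox3, the highest radial glia gene.

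Among the 12 genes with the largest fall are Reln, Trp73 and Lhx5 of the Cajal-Retzius list. Of these 12 genes 3 (Hspb3, Lhx5 and Kcnj5) reached the value minimum through the WT-labelled libraries alone, and the same limit holds for them. Hspb3, a small heat shock protein, read 0, 0 and 2.85 with the cKO label and 33.1, 56.9 and 60.4 with the WT label (adjusted p = 0.00016). The cKO-labelled value rests on 3 reads, all in library C, and the ratio of reads with the WT label over those with the cKO label was 52.1 (95% counting interval 17.5 to 256). Without that library the fitted difference was -5.63. Kcnj5, a potassium channel subunit, read 1.82, 2.04 and 4.75 with the cKO label against 62.0, 60.2 and 49.0 with the WT label (-3.98 ± 0.34, adjusted p = 4.5e-05). Hgf, hepatocyte growth factor, read 3.63, 17.3 and 7.60 with the cKO label against 89.8, 124 and 163 with the WT label (-3.77 ± 0.47, adjusted p = 0.00025).

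Inhba, which encodes the activin A subunit and is on the upper-layer list, read 31.8, 111 and 64.6 in the cKO-labelled libraries and 632, 664 and 617 in the WT-labelled ones (-3.36 ± 0.37, adjusted p = 0.00013). Adcyap1, the neuropeptide PACAP, read 27.3, 48.9 and 103 with the cKO label against 492, 518 and 554 with the WT label (-3.31 ± 0.39, adjusted p = 0.00019). cKO library A was lowest in both. Fam19a1, a secreted protein of neurons, read 5.45, 17.3 and 6.65 with the cKO label against 87.7, 319.7 and 308 with the WT label (-4.42 ± 0.55, adjusted p = 0.00026), and without WT library A its difference was -5.02.

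A further 3 genes rest in part on 1 library. Nwd2 read 27.3, 66.2 and 95 with the cKO label and 294, 1072 and 1535 with the WT label (-3.79 ± 0.62, adjusted p = 0.0011), or -4.5 without WT library A. Fibin, a secreted protein, read 0, 3.06 and 12.4 with the cKO label against 95.1, 74.5 and 70.6 with the WT label (-4.41 ± 0.78, adjusted p = 0.0017), or -3.45 without cKO library A and -5.32 without cKO library C. Ahnak2 read 1.82, 11.2 and 12.4 with the cKO label against 48.1, 76.6 and 87.7 with the WT label (-3.17 ± 0.57, adjusted p = 0.0019), or -2.45 without cKO library A. All remained called in these fits. In all, 72 genes called lower fell below Nefl, the lowest postmitotic gene.

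**Figure D5:**
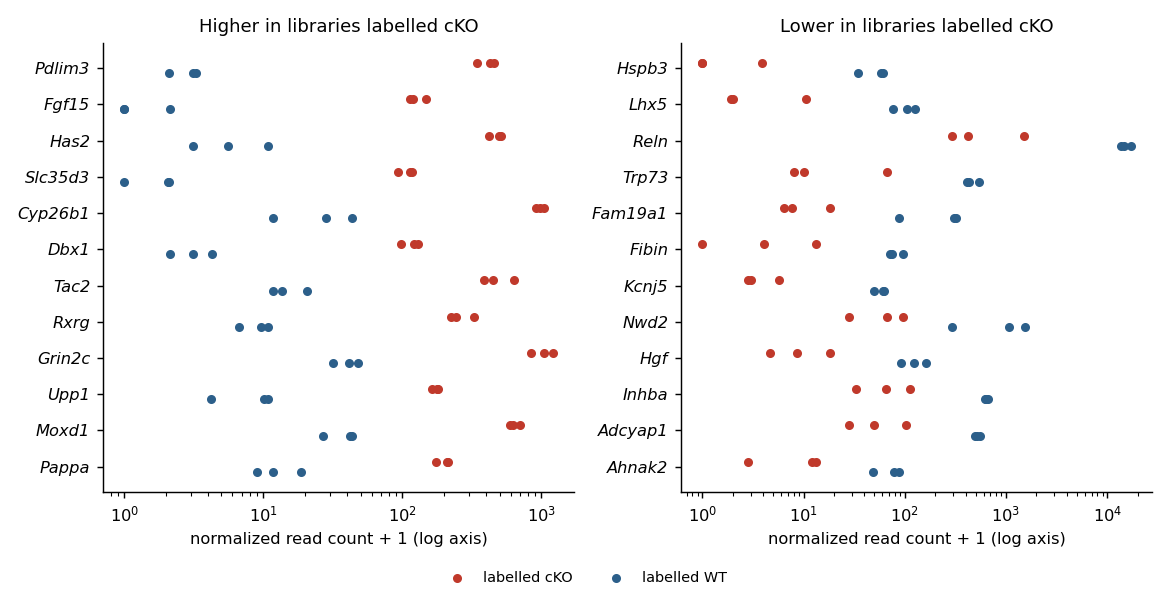
Normalized read count + 1 (x axis, log scale) in each E17.5 library of the 12 genes with the largest rise and the 12 with the largest fall (rows), red for libraries labelled cKO and blue for those labelled WT. Fgf15 reads 112 to 147 with the cKO label and at most 1.14 with the WT label. The naming rule required groups that do not overlap.

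Lists of neighbouring brain regions held calls in both directions, to be read against the 21.2% higher and 26.8% lower over all genes. Of 19 ventral forebrain and interneuron genes 4 rose and 8 fell (median -0.26), but in the 8-group fit 1 was lower. Dlx2, which defines this lineage, read 519.7, 455 and 575 in the libraries labelled cKO and 625, 596 and 488 in those labelled WT, overlapping and not past the threshold (-0.14 ± 0.13, adjusted p = 0.42). Gad2, a GABA synthesis enzyme, read 539, 635 and 489 with the cKO label against 826, 857 and 936 with the WT label (-0.66 ± 0.12, adjusted p = 0.0017), a call lost in the 8-group fit (adjusted p = 0.57). Leaving out WT E15.5 library B as well did not restore the Gad2 call. Npy, a peptide of some interneurons, read 221, 375 and 176 with the cKO label against 1479, 2395 and 2094 with the WT label (-2.99 ± 0.27, adjusted p = 5.6e-05).

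Striatal genes rose at 4 of 8 and fell at 2 (median 0.32), or 2 and 1 in the 8-group fit. Drd1, the dopamine receptor that defines direct pathway neurons, read 255, 330.1 and 228 with the cKO label and 722, 646 and 690.4 with the WT label (-1.35 ± 0.14, adjusted p = 0.00012), a call lost in that fit. It stayed lost without WT E15.5 library B as well. Thalamic genes rose at 3 of 10 and fell at 3 (median -0.06). Tcf7l2, used here to mark thalamus and also a WNT effector in progenitors, read 601, 579.7 and 546 with the cKO label against 177, 149 and 172 with the WT label (1.79 ± 0.12, adjusted p = 1.5e-05), whereas Cabp7, a calcium-binding protein, read 83.6, 108 and 87.4 with the cKO label against 445, 337 and 273 with the WT label (-1.89 ± 0.20, adjusted p = 0.0001).

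Ribosomal protein genes gave no calls. Of 50 ribosomal protein genes 0 passed, with a median of 0.03 and a range of -0.27 to 0.24. At an unadjusted p under 0.05 0 were higher and 1 lower, and edgeR called 0. Without cKO library A 3 were called lower, and without WT library C 1 was. The 7 tested genes of the mitochondrial genome gave 0 calls as well, by limma, by edgeR and unadjusted, with a median of -0.12, although 1 was lower without cKO library A.

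The nuclear respiratory chain, of interest since Prdm16 controls mitochondrial genes in brown fat, had 5 of 76 genes higher and 4 lower (median 0.03). Atp5g2, a subunit of ATP synthase, read 1068, 899 and 967 in the cKO-labelled libraries and 781, 754 and 695 in the WT-labelled ones (0.39 ± 0.10, adjusted p = 0.01), and Cox7b, of cytochrome oxidase, 2614, 1961 and 2241 with the cKO label against 3082, 3000.2 and 2739 with the WT label (-0.38 ± 0.11, adjusted p = 0.02). These counts were unstable. Without WT library B 2 were higher, without WT library A or B or cKO library B 1 was lower, without cKO library C 2 were lower, and the 8-group fit left 1 higher and 0 lower.

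PGC-1 and mitochondrial biogenesis genes rose at 6 of 14 and fell at 2 (median 0.09), or 3 higher in that 8-group fit and 1 lower without WT library C or cKO library A or B. Over all genes 21.2% were higher and 26.8% lower. Ppargc1a, the coactivator PGC-1α that PRDM16 binds in brown fat, read 316, 371 and 355 with the cKO label and 401, 397 and 479.6 with the WT label. The groups did not overlap but the difference did not pass (-0.29 ± 0.12, adjusted p = 0.079). Esrrg, a nuclear receptor of oxidative metabolism, read 75.4, 113 and 127 with the cKO label against 246, 319.7 and 385 with the WT label (-1.59 ± 0.23, adjusted p = 0.00061), and Ucp2, an uncoupling protein, rose to 608, 606 and 572 with the cKO label against 397, 368 and 391 with the WT label (0.63 ± 0.10, adjusted p = 0.00073).

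Some redox and biosynthetic genes held larger rises. Of 40 antioxidant and glutathione genes 15 rose and 3 fell (median 0.16), 1 falling without WT library B or cKO library B and by edgeR. Over all genes 21.2% were higher and 26.8% lower. The 3 genes that follow are far above the list median. Gpx3, a secreted glutathione peroxidase, read 685, 655 and 591 in the libraries labelled cKO and 137, 148 and 113 in those labelled WT (2.28 ± 0.14, adjusted p = 1.1e-05). Gpx8, a peroxidase of the endoplasmic reticulum, read 1217, 953 and 813 with the cKO label against 212, 221 and 209.6 with the WT label (2.19 ± 0.15, adjusted p = 1.6e-05), and Gsta4, a glutathione transferase, 1212, 491 and 850.5 with the cKO label against 118, 112 and 159 with the WT label (2.63 ± 0.30, adjusted p = 0.00016). These groups did not overlap. The superoxide dismutases Sod1 (0.09) and Sod2 (-0.05) did not pass.

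Serine synthesis and related genes rose at 11 of 19 and fell at 2 (median 0.49). The 3 enzymes of the pathway were all higher. Phgdh read 3314, 3359 and 3354 with the cKO label and 1494, 1345 and 993 with the WT label (1.41 ± 0.14, adjusted p = 7.8e-05), Psat1 12692, 12269 and 9512 with the cKO label against 3529.5, 3191 and 2991 with the WT label (1.82 ± 0.12, adjusted p = 1.5e-05) and Psph 967, 811 and 822 with the cKO label against 523, 489 and 387 with the WT label (0.90 ± 0.13, adjusted p = 0.00069). No library crossed groups in any of them. By edgeR, and without WT library A or B or cKO library A or B, 1 of the list was lower.

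Glycolysis and hypoxia genes rose at 19 of 29 and fell at 7 (median 0.35), and the 8-group fit had 7 higher and 4 lower. Aldoc, the aldolase of astroglia and radial glia, read 12852, 10682 and 11119.9 in the cKO-labelled libraries and 3740.1, 3516 and 3117 in the WT-labelled ones (1.74 ± 0.10, adjusted p = 8.8e-06). Pfkp, the platelet-type phosphofructokinase, read 784, 1345 and 1310.4 with the cKO label against 3505, 4783 and 5677 with the WT label (-2.03 ± 0.23, adjusted p = 0.00016). Eno1 rose (0.83) and Eno2, the neuronal enolase, fell (-1.02). Hk2 rose (1.09) and Hk1 fell (-1.08), and these 2 pairs were chosen after their values were seen. Egln3, a hypoxia-induced prolyl hydroxylase, read 2103, 1796 and 1721 with the cKO label against 519, 565 and 579.9 with the WT label (1.75 ± 0.10, adjusted p = 9.1e-06).

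Markers of cells from outside the neural lineage show what else the tissue held. Red blood cell genes fell at 8 of 9 and rose at none (median -1.49). Hbb-bt, adult beta globin, read 921, 927 and 800.1 with the cKO label and 2076, 2336 and 4427 with the WT label (-1.66 ± 0.25, adjusted p = 0.00066), where WT library C was highest. Without that library or cKO library A 4 fell, and without cKO library B or C 5 fell. The globin genes have close copies whose reads may be shared, so single values are uncertain. Summed, the list read 4587, 4221 and 4649.6 with the cKO label and 10699, 11954 and 22683 with the WT label.

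Microglia genes rose at 8 of 14 (5 in the 8-group fit) and fell at none (median 0.62). Csf1r, the receptor on which microglia depend, read 757, 779 and 778 in the cKO-labelled libraries and 530.2, 446 and 509 in the WT-labelled ones (0.64 ± 0.10, adjusted p = 0.00083), and P2ry12, a purinergic receptor, 378, 273 and 329.7 with the cKO label against 188, 151 and 208 with the WT label (0.84 ± 0.17, adjusted p = 0.0035). No groups overlapped there. The list sum was 3685 to 4249 with the cKO label and 2697 to 2756 with the WT label.

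Endothelial genes rose at 2 of 14 and fell at none (median -0.09), with 1 or 3 falling without cKO library A or C. Cldn5, of the tight junction, read 1197, 924 and 1480.5 with the cKO label and 1173, 1066 and 925 with the WT label and did not pass (0.17 ± 0.17, adjusted p = 0.44). Mfsd2a, a lipid transporter of the blood-brain barrier, rose (0.80 ± 0.09, adjusted p = 0.00016). Pericyte genes rose at 3 of 10 and fell at 1 (median 0.13), beside 21.2% and 26.8% over all genes. The fall was lost without WT library A or C or cKO library A or B. Notch3 (1.02 ± 0.17, adjusted p = 0.0014) was among those that rose.

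Meningeal and fibroblast genes fell at 6 of 12 and rose at 1 (median -0.71), but none passed in the 8-group fit, and 1 fell and 1 rose there without WT E15.5 library B. Col1a1, a fibrillar collagen, read 163, 66.2 and 80.8 with the cKO label and 166, 189 and 306 with the WT label (-1.15 ± 0.34, adjusted p = 0.023), a call lost without WT library C or cKO library B or C. The list sum overlapped, at 2925 to 3894 with the cKO label and 3089 to 3536 with the WT label. Epidermal genes fell at 2 of 5 tested and rose at none, 1 of them in the 8-group fit and 2 there without WT E15.5 library B (median -0.91). That library read 19435 for the sum of epidermal genes, 6658 for Krt5 and 34888 for Col1a1, against 176, 1.95 and 51.8 in WT E15.5 library A. Dsp, desmoplakin, read 8.18, 11.2 and 17.1 with the cKO label against 64.1, 56.9 and 177 with the WT label (-2.79 ± 0.44, adjusted p = 0.00097), and Krt5, which defines that list, was under the minimum. The part of these cells in the results above was not tested.

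Xist had a difference of -3.94 ± 1.76 that did not pass (adjusted p = 0.097). Without cKO library C, which held Y-linked transcripts, it was -1.35 (adjusted p = 0.00032), and without cKO library B -5.31 (adjusted p = 0.044). Of 6 X inactivation and Y genes tested, 1 fell and 0 rose. The 1 that fell was Tsix, which lies antisense to Xist and may share its reads. Without cKO library B 4 fell, and without C 2 fell and 1 rose. On the X chromosome 135 of 568 genes were higher and 153 lower, with a median of -0.04, close to the median of all genes.

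The comparison at E17.5 stood apart from the earlier days. The difference between labels at E17.5 was tested against the mean difference at E11.5, E13.5 and E15.5 in a fit over all 8 groups, without the 5 libraries C already named as left out of the 8-group fit (cKO and WT E11.5, cKO E13.5, cKO and WT E15.5). It differed at 3691 genes (23.3%), above at 1913 (12.1%) and below at 1778 (11.2%). In the same fit 95 genes (0.601%) were called between labels at E11.5, 534 (3.38%) at E13.5 and 40 (0.253%) at E15.5. Without WT E15.5 library B, which leaves 1 WT-labelled library on that day that is assumed to vary like the other groups, 3233 genes differed from the other days and 22 (0.139%) were called at E15.5. The fewer libraries on those days make their counts not directly comparable with E17.5.

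Among the lists, 17 of 18 radial glia genes, 22 of 22 genes of G2 and mitosis, 19 of 22 S phase genes and 10 of 14 intermediate progenitor genes had a larger difference at E17.5 than on the mean of the other days. Pax6 exceeded it by 1.54 ± 0.13 (adjusted p = 4.6e-06) and Eomes by 1.49 ± 0.15 (adjusted p = 1.2e-05). Below it were 9 of 10 Cajal-Retzius genes, 8 of 16 postmitotic neuron genes and 8 of 12 deep-layer genes. Reln had a value of -4.37 ± 0.59 (adjusted p = 0.0001) and Tubb3 one of -0.98 ± 0.24 (adjusted p = 0.0072). The value of Dcx did not pass (-0.17 ± 0.27, adjusted p = 0.71). Without WT E15.5 library B these counts were the same, except for 7 postmitotic neuron genes below, and 1 Cajal-Retzius gene above in addition.

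Against E15.5 alone the picture was narrower for some of the largest differences. The between-day values of Fgf15 (1.06), Cyp26b1 (1.82), Dbx1 (1.80), Rxrg (1.85), Has2 (3.32) and Hgf (-1.23) no longer passed, whereas those of Pax6 (1.52), Eomes (1.39), Reln (-5.06) and Tubb3 (-1.30) did. At E15.5 Fgf15 read 108, 98.0 and 95.1 with the cKO label and 3.91, 0 and 6.88 with the WT label, with a difference on that day of 5.55 ± 1.05 (adjusted p = 0.038), a call lost without WT library B (4.40 ± 1.21, adjusted p = 0.53). Cyp26b1 read 660.2, 562 and 598 with the cKO label against 13.7, 197 and 91.2 with the WT label on that day, where its groups did not overlap but its difference did not pass (3.50 ± 0.83, adjusted p = 0.16). WT library B, whose meningeal and epidermal sums were given above, was the highest of its group for Cyp26b1, and without it the difference passed (5.38 ± 0.58, adjusted p = 0.0011). Has2 read 153, 125 and 123 with the cKO label and 0.977, 142 and 71.4 with the WT label on that day, a difference of 3.05 ± 1.27 (adjusted p = 0.93) with that library and 6.14 ± 0.72 (adjusted p = 0.0016) without it. Against E15.5 alone and without that library, 1281 genes differed. The between-day values of Cyp26b1 (-0.055) and Has2 (0.23) were then near 0, that of Tubb3 (-1.09) no longer passed, and those of Pax6 (1.57), Eomes (1.51) and Reln (-5.10) still passed.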

How the data were processed

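PolyA-selected RNA of 24 libraries was sequenced with a stranded kit, per the labels' protocols. The deposited table holds 1 signal value per gene and library, a normalized read count made by the authors. The tools named, per the submitters' processing notes, are DESeq 1.22.1, HTSeq 0.5.3, cutadapt 1.6 and STAR 2.5.0a, with the build mm10 and without the role of each. The strand setting and annotation release were details not given in the sources used here. Every value was a whole number of reads divided by a size factor (100% whole within 0.01), so reads were recovered. Of 22529 gene IDs, 22411 (99.5%) matched GENCODE M21, 25 symbols had been turned into dates and 13 symbols had more than 1 ID.

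The main test was limma 3.58.1 with trend (R 4.3.3) on log2(value + 1) of the 6 E17.5 libraries, over 15820 genes with a value of at least 10 in at least 3 of them, Benjamini-Hochberg adjusted with a threshold of 0.05. It was also run on simulated counts with few genes changed and the same added spread for every gene. That run does not show how the test behaves where 48.1% of genes are called. Differences between days came from 1 fit over 8 groups without 5 libraries C. Alternatives were edgeR 4.0.16 and DESeq2 1.42.0 on the recovered counts, other scalings, pseudocounts of 0.5 and 5, filters, a replicate block and leaving out each library. A fit without WT E15.5 library B as well was added after seeing the data. Named genes are Prdm16, Mecom and the defining markers. Also named are the 12 highest and 12 lowest called genes whose libraries did not overlap, with predicted and clone names passed over. From each list up to 4 called members with the largest absolute differences are named. In both cases the higher label averaged 50 or more. Prdm12 read under 50 in every E17.5 library and was named outside this rule. Pdzrn3, Ppargc1a, Xist and list members given as counterexamples were chosen after their values were seen. The members and the 49 lists were chosen with earlier results of these data known. Promoter sequences are from RefSeq (GRCm38.p6). Some genes are not reported here.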

Additional observations from a re-analysis of the deposited data

Results flagged for a closer look

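The E17.5 difference between labels was set against the mean difference on the other days, by a test of the difference itself in limma, and 3691 of the 15820 genes passed. Of 47 named genes tested this way, 37 passed, beside 23.3% of all genes. The 12 highest and 12 lowest genes among the 47 were picked for their E17.5 difference. That choice favours passing, so it is not a further result about them. Of these, 7 of the highest and 3 of the lowest reached the value minimum through the libraries of 1 label alone. All 37 kept direction and call without WT E15.5 library B, which stands apart, while against E15.5 alone 25 kept both with that library and 15 without it. Values are log2 differences of differences, the E17.5 value of the libraries labelled cKO minus WT less the mean of the other days.

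Among regulators, Prdm16 (1.66), Mecom (-0.87) and Pdzrn3 (1.59) passed. Prdm16 and Mecom are related genes whose between-day values have opposite signs, although both were higher with the cKO label at E17.5 (0.76 and 0.54). Mecom was higher with that label on the earlier days too, by 1.2 at E11.5, 1.7 at E13.5 and 1.3 at E15.5. Of these only the E13.5 difference passed (limma adjusted p = 0.0085).

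Of the genes with the largest rise at E17.5, those above the other days were Pdlim3 (5.68), Fgf15 (5.35), Has2 (4.84), Slc35d3 (4.15), Cyp26b1 (3.66) and Dbx1 (4.46), and also Tac2 (4.42), Rxrg (4.36), Grin2c (4.95), Upp1 (3.35), Moxd1 (3.88) and Pappa (4.04). Already at E15.5, Pdlim3 (3.70, limma adjusted p = 0.018), Slc35d3 (3.86, 0.003) and Tac2 (2.22, 0.036) were called higher with the cKO label. Fgf15 was called there too, with the limit given above, and the rest did not pass on that day in this fit. Of those with the largest fall, the values were Hspb3 (-5.20), Lhx5 (-4.81), Reln (-4.37), Trp73 (-5.04), Fam19a1 (-4.16) and Kcnj5 (-4.5), and also Nwd2 (-3.12), Hgf (-2.53), Inhba (-2.33) and Adcyap1 (-3.02).

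Among defining markers of cell types, the progenitor genes were above the other days, with Pax6 (1.54), Sox2 (1.53), Hes5 (1.85) and Eomes (1.49). Also above the other days were Dlx2 (2.74), Olig2 (2.73), Aqp4 (1.44), Foxj1 (0.89) and Tcf7l2 (1.83). Below the other days were Tubb3 (-0.98), Gfap (-2.27) and Hbb-bt (-1.71). Dlx2 did not pass between labels at E17.5 itself, so its value rests on the other days. Against E15.5 alone Olig2 (0.51, adjusted p = 0.5) and Gfap (-0.03, adjusted p = 0.99) did not pass. The calls of Inhba, Foxj1 and Mecom were lost in most fits that left out 1 E17.5 library, that of Aqp4 without WT library B and that of Gfap without cKO library B.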

How the results depend on the processing

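The count of 7602 genes called at E17.5 stayed within 1.5 times under the other tools, scalings, pseudocounts and filters, and at an absolute log2 difference of at least 1 it was 2677. By edgeR 7642 genes passed (48.3%), 7135 of them shared with limma, and by DESeq2 7364. Leaving out each library in turn gave 5912 to 7513 genes, and 2668 to 3471 for the difference between days, which ranged from 2801 against E15.5 alone to 5303 with all 24 libraries, and fell to 1281 against E15.5 alone without WT E15.5 library B, a fit added after seeing the data. Prdm16 ranged from 0.68 to 0.87 with 1 library left out. Same-lettered libraries did not deviate together (correlations of 0.179 for A, -0.037 for B and -0.00293 for C), and an unmatched pair reached 0.196 (cKO B with WT C), so the letters were not treated as pairing. With them as a replicate block 7423 genes passed at E17.5 and 3683 between days. The between-day value of Dlx2 reversed to -0.41 against E15.5 alone, and without WT E15.5 library B as well those of Dlx2 (-0.18), Cyp26b1 (-0.055) and Gfap (0.27) did; the cause was not tested. Named genes kept direction and call in 2419 of 2510 comparisons under other settings. Most of these genes were picked as called, and many of the settings change the fit little, so the total favours agreement. Of 89 calls lost, 31 fell in the 8-group fit and 20 in the fit over all 8 groups with every library. The 8-group fit without WT E15.5 library B as well lost more of these calls than the fit with every library. The recovered depth limits genes with a few reads, whose fitted size follows the pseudocount, such as Fgf15 at 4.6 to 7.40.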

Other observations

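Some other members of the PRDM family also differed between labels at E17.5. Of 11 tested, 4 rose, Prdm16 and Mecom among them, and 5 fell (median -0.22), 1 of them falling in the 8-group fit. Over all genes 21.2% were higher and 26.8% lower. Prdm12, known from pain-sensing neurons, read 39.1, 49.9 and 41.8 in the libraries labelled cKO and 5.34, 3.28 and 3.42 in those labelled WT (3.17 ± 0.29, adjusted p = 5.7e-05). It reached the value minimum through the cKO-labelled libraries alone, so that its groups had to differ. Prdm8, a factor of upper-layer and other neurons, fell (-0.46 ± 0.11, adjusted p = 0.0099).

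Cholesterol synthesis genes rose at 5 of 22 and fell at 5 (median -0.12), near the 21.2% higher and 26.8% lower over all genes. Leaving out 1 library gave 2 to 5 higher and 1 to 8 lower. The p53 targets rose at 4 of 14 and fell at 4 (median 0.08), 2 and 2 in the 8-group fit, also near those shares. Btg2, an antiproliferative gene of neurogenic progenitors, rose to 3401, 2807 and 2078 with the cKO label, against 1484, 1133 and 1025 with the WT label (1.17 ± 0.19, adjusted p = 0.0011), and Plk2, a kinase induced by activity in neurons, fell to 2029.7, 2282 and 2947 with the cKO label against 7881, 7977 and 8058 with the WT label (-1.74 ± 0.13, adjusted p = 2.1e-05). Immediate early and heat shock genes rose at 4 of 12 and fell at 1 (median 0.36), 1 and 0 in the 8-group fit, and 1 rose without WT library B. Jun read 2886, 2747 and 3756 with the cKO label against 1805, 1458 and 1086 with the WT label (1.13 ± 0.19, adjusted p = 0.0012).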
